A study of Mus musculus with 4 samples.

Results

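Replication-independent (replacement) histone variants were examined as the 8 mouse genes *H2afx*, *H2afz*, *H2afv*, *H2afy*, *H2afj*, *H3f3a*, *H3f3b* and *Cenpa*, chosen by name from the 53465 genes of the deposited expression table. The RNA came from cultured cells labelled FGSCs (female germline stem cells) from mouse ovary. The cells carried a lentiviral control shRNA (shNC) or a lentiviral shRNA against *Nat10* (shNAT10), the gene of the RNA acetyltransferase NAT10 that makes N4-acetylcytidine. Each group had 2 libraries, and infected cells had been selected with an antibiotic. The comparison asks how the mRNA levels of these variants differed between the knockdown and control cells.

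In brief, *H2afx* rose 2.35-fold and *H3f3b* rose 1.27-fold in shNAT10 cells, and the other 6 genes did not pass the threshold. Levels were read as FPKM, the fragments of a gene divided by its exon length and by a divisor set for each library. *H2afx* stood at 175 and 137 FPKM in the control libraries and at 378 and 347 after knockdown. That of *H3f3b* was 53.5 and 58.7 in shNC and 69.9 and 72.7 in shNAT10. A gene was counted as changed at a fold change over 1.2 with an unadjusted p of at most 0.05 by limma, and neither gene reached an adjusted p under 0.05 (0.0692 and 0.191, limma with Benjamini-Hochberg adjustment over all 20116 genes tested). Of all genes tested, 16.2% passed this threshold, 8.41% as higher and 7.83% as lower, and the count of 2 in 8 members is to be read against that background.

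Most histone protein is made in S phase from clustered, intronless genes whose mRNAs end in a stem-loop in place of a poly(A) tail and are translated while DNA is copied. Replacement variants are made outside S phase as well, mostly from scattered genes with introns and polyadenylated mRNAs, and they enter chromatin by dedicated chaperones and remodellers. H2A.X is phosphorylated around DNA breaks, H2A.Z marks promoters and enhancers, macroH2A sits in silent chromatin, H3.3 fills gaps in active genes and at telomeres, and CENP-A defines the centromere. *H2afx* is known as an exception among them, since its mRNA can end either at a stem-loop or, further downstream, at a poly(A) site.

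The reference sequence was searched for elements of both endings. The pattern GGNNCTTTTNAGNNCC, which covers the 16 bases of the histone stem-loop, was searched on the sense strand of every GENCODE M21 protein-coding transcript (build GRCm38). It occurred in 1 of the 8 members, *H2afx*, in 40 of 59 replication-dependent core histone genes (67.8%), in 4 of 10 linker H1 genes (40.0%) and in 72 of all 21901 protein-coding genes (0.329%). The *H2afx* match and 1 match from each histone family are given 5′ to 3′ on the sense strand, with the pattern in capitals and 5 flanking bases on each side, so that the element of *H2afx* can be compared with those of the replication-dependent genes.
H2afx: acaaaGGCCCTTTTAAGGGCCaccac
Hist1h1c: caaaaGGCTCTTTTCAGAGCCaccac
Hist2h2ac: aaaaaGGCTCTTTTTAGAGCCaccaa
Hist1h2bb: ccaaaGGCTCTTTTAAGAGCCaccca
Hist1h3e: aaaacGGCTCTTTTAAGAGCCacctc
Hist1h4h: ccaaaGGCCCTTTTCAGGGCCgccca
The *H2afx* element lies at chr9:44335240-44335255 on the plus strand, in the 3′ UTR, 46 bases after the stop codon, and the annotated transcript of 1384 nt continues for another 822 nt. The distance from the element to the annotated transcript end was 23 nt in *Hist1h2bb*, 46 nt in *Hist1h4h*, 57 nt in *Hist2h2ac*, 369 nt in *Hist1h3e* and 840 nt in *Hist1h1c*. A poly(A) signal, searched as AATAAA or ATTAAA in the last 50 bases of a transcript, was found in 7 of the 8 members (87.5%), the exception being *H2afy*, against 77.9% of all protein-coding genes and 15 of 59 replication-dependent core genes (25.4%). Thus *H2afx* carried both elements. A match is a description of the sequence and does not show which end was used in these cells. Only annotated transcripts and a single strict pattern were searched, so a gene without a match is not shown to lack a stem-loop.

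The members lie on 7 chromosomes of GRCm38. *H2afx* (ENSMUSG00000049932) is a single-exon gene at chr9:44334694-44336077 on the plus strand, and the other 7 genes have a transcript with introns. *H2afz* (ENSMUSG00000037894) lies at chr3:137864487-137866922 on the plus strand and *H2afv* (ENSMUSG00000041126) at chr11:6427229-6444443 on the minus strand. *H2afy* (ENSMUSG00000015937) lies at chr13:56073619-56136361 on the minus strand and *H2afj* (ENSMUSG00000060032) at chr6:136808244-136810074 on the plus strand. *H3f3a* (ENSMUSG00000060743) lies at chr1:180800832-180813943 on the minus strand, *H3f3b* (ENSMUSG00000016559) at chr11:116021912-116027962 on the minus strand and *Cenpa* (ENSMUSG00000029177) at chr5:30666777-30674830 on the plus strand.

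The deposited FPKM could be turned back into whole fragments, 11057916 to 14902415 per library, and the members rested on 219 (*H2afv*, shNAT10-1) to 8910 (*H2afz*, shNAT10-2) fragments each. The divisors behind the FPKM were 11.7 and 11.9 M (mega) fragments in shNC and 12.6 and 15.3 M in shNAT10, below the recovered totals of both shNC libraries (14902415 and 13029082) and above those of both shNAT10 libraries (11057916 and 13771478). With the FPKM rescaled by median ratios, or to equal totals over protein-coding genes, the log2 differences given for *H2afx* and *H3f3b* moved by less than 0.01. All 8 passed the filter of a mean of at least 0.1 FPKM. The target of the shRNA, *Nat10*, was at 7.79 and 5.42 FPKM in shNC and at 2.95 and 3.04 in shNAT10 (log2 difference -1.09, standard error 0.21; limma adjusted p = 0.123). Without shNAT10-1 or shNAT10-2 the difference in *Nat10* was -1.07 or -1.11 and no longer passed the threshold. The cell label and the markers differed: among 8 germline markers *Dazl*, *Pou5f1* and *Dppa3* were listed at 0 in all 4 libraries, *Ddx4* was above 0 in a single library at 0.0529 FPKM, and only *Ifitm3* had a mean of at least 1 FPKM. The summed germline markers, nearly all *Ifitm3*, were at 9.85 and 22.8 FPKM in shNC and at 28.0 and 34.4 in shNAT10, without overlap. All 5 leukocyte markers and 4 of 8 mast cell markers had a mean of at least 1 FPKM, with *Ptprc* at 15.3 to 15.5 and *Cpa3* at 245 to 272, while *Fcer1a* and *Tpsb2* were at 0. The summed leukocyte markers were at 443 and 493 FPKM in shNC and at 363 and 384 in shNAT10, without overlap. At the threshold 3 of the 5 genes were lower (60.0%, beside 7.83% of all genes tested). The part of these markers in the results on the variants was not tested, and in bulk RNA fewer cells of a type and less RNA per cell cannot be told apart. Summed mast cell markers, mostly *Cpa3*, overlapped between the groups (313 and 323 against 323 and 318 FPKM). However, 3 of the 5 tested passed the threshold (60.0%, beside 16.2% of all genes tested). *Ms4a2* was higher (log2 difference 2.12), and *Kit* (-0.60) and *Gata2* (-0.33) were lower. Summed fibroblast markers, mostly *Dcn*, also overlapped (51.7 and 44.8 against 60.7 and 51.4 FPKM). Of these 5 genes 2 were higher, *Col3a1* (0.98) and *Pdgfra* (0.83), which is 40.0%, beside 8.41% of all genes tested. The part of these genes in the results was likewise not tested. Granulosa markers summed to at most 0.485 FPKM.

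FPKM are values per exon length, and the members were ranked by FPKM within each group. This length joins the exons of all transcripts of a gene and can exceed that of a single mRNA. It was 5860 nt for *Cenpa*, 6809 nt for *H2afy* and 1776 nt for *H2afz*. Their longest protein-coding transcripts have 1466, 2046 and 1069 nt, while *H2afx* has 1384 nt by both measures. The order therefore depends on the length used. In shNC cells the order was *H2afz*, *H2afx*, *H3f3a*, *H3f3b*, *H2afy*, *H2afj*, *Cenpa* and *H2afv*, from a mean of 272 down to 11.6 FPKM. Neighbours in this order did not overlap between their libraries, apart from *H2afy* (30.9 to 36.0 FPKM) and *H2afj* (29.3 to 31.3). In shNAT10 cells *H2afx* stood first, at 347 to 378 FPKM, above *H2afz* at 310 to 327, and the other 6 kept their places. With 2 libraries per group these orders are descriptions of FPKM, not of numbers of mRNA molecules. *H2afz* stood between rank 120 and rank 137 among all genes of a library, and *H2afv*, the second gene for H2A.Z, between rank 3152 and rank 3479.

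**Figure D1:**
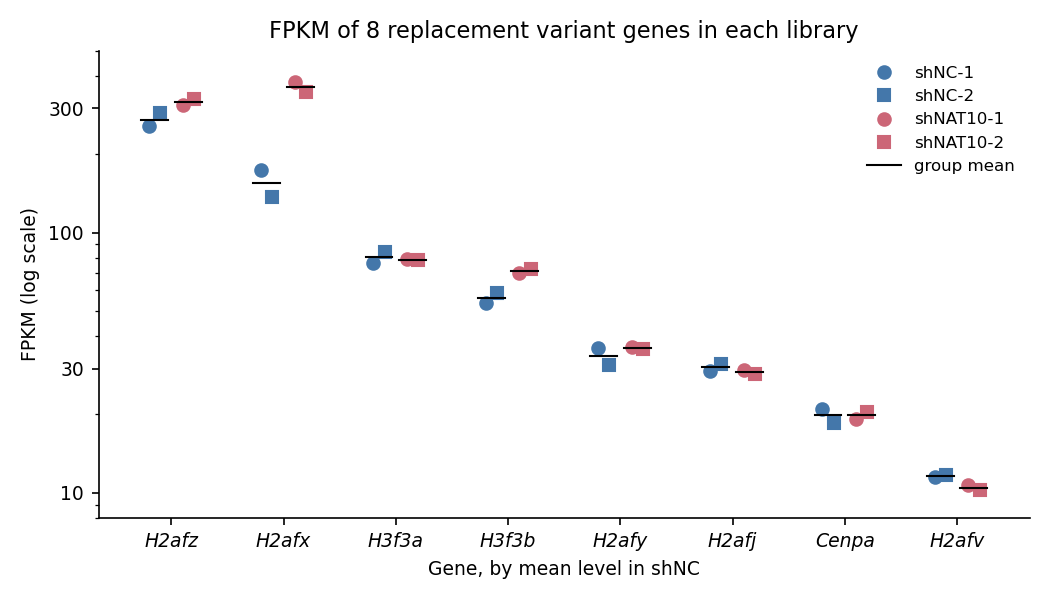
FPKM (log axis) of the 8 replacement variant genes in the 2 shNC (blue) and 2 shNAT10 (red) libraries, with circles for replicate 1, squares for replicate 2 and bars for group means. The *H2afx* points sit at 137 and 175 in shNC and at 347 and 378 in shNAT10, and the points of *H2afy*, *H2afj*, *H3f3a* and *Cenpa* overlap between the groups.

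Summed over the 8 genes, the level was 659 FPKM in each shNC library and 933 and 920 FPKM in the shNAT10 libraries. The mean sum was 268 FPKM higher in shNAT10, and *H2afx* held 207 FPKM of this difference, *H2afz* 46.8 and *H3f3b* 15.2. The share of *H2afx* in the sum was 23.6% in shNC and 39.1% in shNAT10. The median log2 difference over the 8 members was 0.06, beside 0.01 over all genes tested. The groups did not overlap for 4 members, beside 48.0% of all genes tested. *H2afx*, *H2afz* and *H3f3b* were higher in both shNAT10 libraries, as were 23.9% of all genes tested, and *H2afv* was lower in both, as were 24.1%.

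*H2afx* encodes H2A.X, the H2A whose phosphorylated form (γH2AX) marks DNA breaks. Both shNAT10 libraries were above both shNC libraries, and the gap between the groups exceeded the spread within them (mean 156 ± 27.0 FPKM in shNC and 363 ± 21.6 in shNAT10, SD, n = 2 each). The log2 difference was 1.23 (standard error 0.15, 95% interval 0.84 to 1.62; limma adjusted p = 0.0692). The recovered fragments numbered 2839 and 2243 in shNC and 6566 and 7372 in shNAT10, and limma-voom on them gave a log2 difference of 1.23 with an adjusted p of 6.94e-10. In that test 7.88% of all genes had an adjusted p under 0.05. Leaving out each library in turn gave 1.05 to 1.41 and kept the call each time. Of the 20116 genes tested, 1203 (5.98%) had a larger log2 difference than *H2afx*.

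The coding part of *H2afx* resembles that of other H2A genes, and a separate gene is annotated on it. A stretch of 117 nt, bases 249 to 365 of the transcript (8.45% of it), was identical over at least 100 nt to 16 other genes, 14 of them named as replication-dependent histones, so fragments from there cannot be assigned with certainty. These 16 genes summed to 988 and 986 FPKM in shNC and to 3077 and 2723 in shNAT10, above *H2afx* itself in every library and higher in the same libraries. An annotated miRNA gene of 141 nt, *Gm44335*, lies on the opposite strand over bases 272 to 412, and whether the counting used strand is not given in the sources used here. Its FPKM was 548 and 394 in shNC and 1063 and 1064 in shNAT10. The fragments listed for it came to 28.6% to 31.9% of the number listed for *H2afx* in the 4 libraries. With the fragments listed for *Gm44335* subtracted from those of *H2afx*, the log2 difference was 1.25, beside 1.23 with them. Whether these fragments were counted for both genes is not known. The part of shared or doubly counted fragments in the *H2afx* difference was not tested.

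*H3f3a* and *H3f3b* both encode H3.3, the H3 that is deposited outside S phase. *H3f3b* was higher in both shNAT10 libraries, with means of 56.1 ± 3.64 and 71.3 ± 1.96 FPKM (SD, n = 2 each). Its log2 difference was 0.35 (standard error 0.09, 95% interval 0.11 to 0.58; limma adjusted p = 0.191), and the adjusted p by limma-voom was 0.0318. The call was lost without shNAT10-1 (0.37, limma adjusted p = 0.511) and without shNAT10-2 (0.32, limma adjusted p = 0.503). *H3f3a* was at 76.6 and 83.9 FPKM in shNC and at 79.1 and 78.1 in shNAT10. Its groups overlapped, and the log2 difference was -0.03 with a 95% interval of -0.26 to 0.20 (limma adjusted p = 0.902).

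The ratio of *H3f3a* to *H3f3b* does not depend on the scaling between libraries. It was 1.43 in both control libraries, 1.13 in shNAT10-1 and 1.07 in shNAT10-2, so the groups did not overlap. On the log2 scale the ratio was 0.38 lower in shNAT10 (-0.38, between -0.41 and -0.34 with each library left out; exact permutation test, two-sided, p = 0.3333). With 2 libraries against 2, 0.3333 is the smallest p that this test can give. Both genes share stretches of at least 100 nt with pseudogenes, 13 of them for *H3f3a* (14.4% of its transcript, 18.2 to 23.7 FPKM summed) and 2 for *H3f3b* (6.29%, at most 0.420 FPKM). *H3f3a* also overlaps the opposite-strand *Gm17275* over 18.2% of its exon length, which was at 67.3 to 72.8 FPKM.

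*H2afz* and *H2afv* encode the closely related proteins H2A.Z.1 and H2A.Z.2. *H2afz* was at 256 and 287 FPKM in shNC and at 310 and 327 in shNAT10, higher in both shNAT10 libraries. Its log2 difference of 0.23 (standard error 0.10, 95% interval -0.04 to 0.50; limma adjusted p = 0.363) did not pass the threshold, although it did without shNC-2 (0.31, limma adjusted p = 0.300). *H2afv* was at 11.5 and 11.7 FPKM in shNC and at 10.7 and 10.2 in shNAT10, lower in both (log2 difference -0.15, 95% interval -0.39 to 0.10; limma adjusted p = 0.513). The ratio of *H2afz* to *H2afv* was 22.4 and 24.6 in shNC and 29.0 and 32.0 in shNAT10. On the log2 scale it was 0.38 higher in shNAT10 (0.31 to 0.45 with each library left out; exact permutation p = 0.3333).

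The remaining members differed by less than the spread between libraries. *H2afy*, which encodes macroH2A1 with its large extra domain, was at 36.0 and 30.9 FPKM in shNC and at 36.2 and 35.7 in shNAT10 (log2 difference 0.11, 95% interval -0.17 to 0.39; limma adjusted p = 0.647). *H2afj*, which encodes the H2A.J variant, was at 29.3 and 31.3 FPKM against 29.6 and 28.5 (-0.06, -0.29 to 0.17; limma adjusted p = 0.762). *Cenpa*, the centromeric H3, was at 21.0 and 18.6 FPKM against 19.2 and 20.5 (0.01, -0.27 to 0.28; limma adjusted p = 0.988). The shNC-2 library was the lowest for *H2afy* and *Cenpa* and the highest for *H2afj* and *H3f3a*. The upper ends of these intervals were folds of 1.31 for *H2afy*, 1.12 for *H2afj* and 1.22 for *Cenpa*, so equality of the groups was not shown. Genes on the opposite strand are annotated over 2 of these members as well. They are *Gm44364*, a miRNA gene of 141 nt at 118 to 133 FPKM, on *H2afj*, and *Gm47071*, at 18.2 to 24.3 FPKM, on *H2afy*.

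The same comparison was then read in the histone genes that work in S phase. Of 59 replication-dependent core histone genes 57 were tested. At the limma threshold 53 were higher (93.0%, beside 8.41% of all genes tested) and 0 lower, and 20 had an adjusted p under 0.05. The median log2 difference of the 57 genes was 1.304. The medians were 1.499 for H2A, 1.24 for H2B, 1.41 for H3 and 1.19 for H4 genes. The *H2afx* value of 1.23 lay inside this range, above 23 of the 57 genes, and the other 7 members were at 0.35 or below. Genes with the stem-loop pattern had a median of 1.37 (36 of 38 higher) and those without a match 1.22 (17 of 19 higher). Many of these genes are near-identical copies whose fragments cannot be assigned with certainty to one of them. The records also differ on RNA selection: the sample labels describe isolation of mRNA with the Oligotex kit, and the methods of the paper describe removal of rRNA, so how mRNAs without a poly(A) tail were captured is not settled, and its part in these values was not tested.

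Of 8 linker H1 genes tested, 6 were higher (75.0%, beside 8.41% of all genes tested): *Hist1h1a* by 1.90 on the log2 scale, *Hist1h1d* by 1.84, *Hist1h1b* by 1.66, *Hist1h1e* by 1.296, *Hist1h1c* by 1.16 and *H1f0* by 0.31. *H1f0* encodes H1.0, the replacement form of the linker histone. It was at 35.4 and 37.0 FPKM in shNC and at 44.3 and 45.6 in shNAT10 (standard error 0.08; limma adjusted p = 0.191). The other tested genes, *H1fx* (log2 difference 0.61, at most 0.536 FPKM) and *Hist1h1t* (-0.13, 0 to 3 fragments per library), did not pass the threshold.

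**Figure D2:**
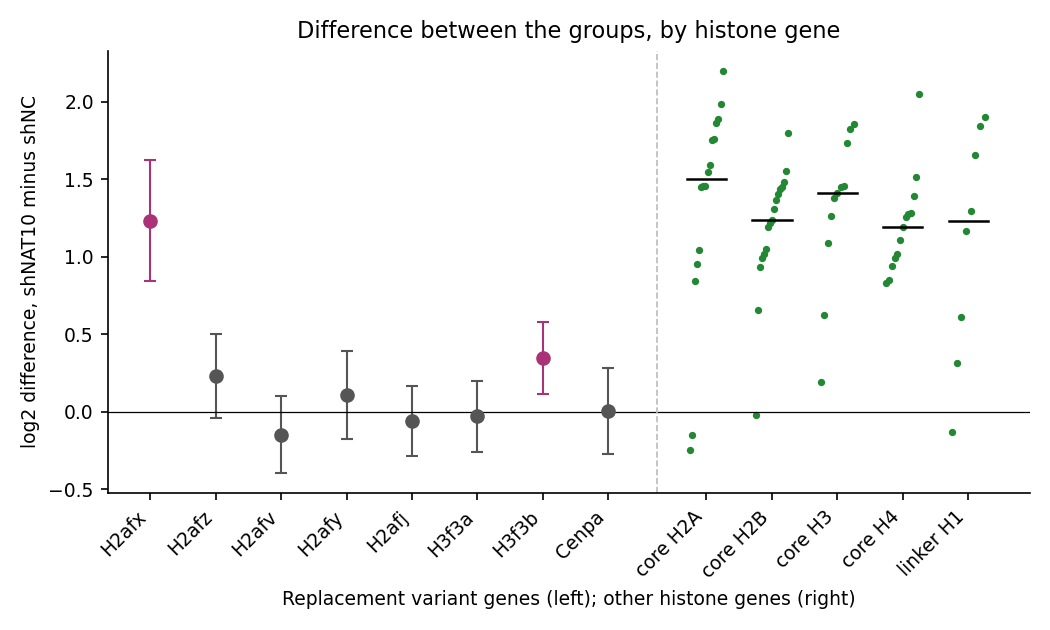
Log2 difference (shNAT10 minus shNC) of each replacement variant gene with its 95% interval from limma (left; purple, past the threshold; grey, not), and of single replication-dependent core and linker H1 genes (right; green points, with bars for medians). *H2afx* at 1.23 lies among the green points, *H3f3b* at 0.35 below most of them, and the other members between -0.15 and 0.23.

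The weight of each variant within its histone family was described as a share of summed FPKM, chosen after the values had been seen. The H3 sum held *H3f3a*, *H3f3b* and the replication-dependent H3 genes, without *Cenpa*. *H3f3a* and *H3f3b* together made up 13.6% and 11.5% of it in shNC, and 5.56% and 6.02% after knockdown. Their own sum was 1.10-fold higher in shNAT10, while that of the 12 replication-dependent H3 genes was 2.54-fold higher. *H2afz* and *H2afv* together held 14.5% and 15.7% of the H2A FPKM in shNC and 7.15% and 8.30% in shNAT10. The *H2afx* share was 9.46% and 7.14% in shNC and 8.42% and 8.54% after knockdown, so its share overlapped between the groups and the sign of its difference turned without shNC-2 (-0.97 percentage points, against 0.18 with all libraries). The ratio of *H2afx* to *H2afz* was 0.681 and 0.475 in shNC and 1.22 and 1.06 in shNAT10 (log2 difference 1.00, 0.74 to 1.26 with each library left out; exact permutation p = 0.3333). These are shares of FPKM, which depend on the exon lengths used, and not of protein in chromatin.

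**Figure D3:**
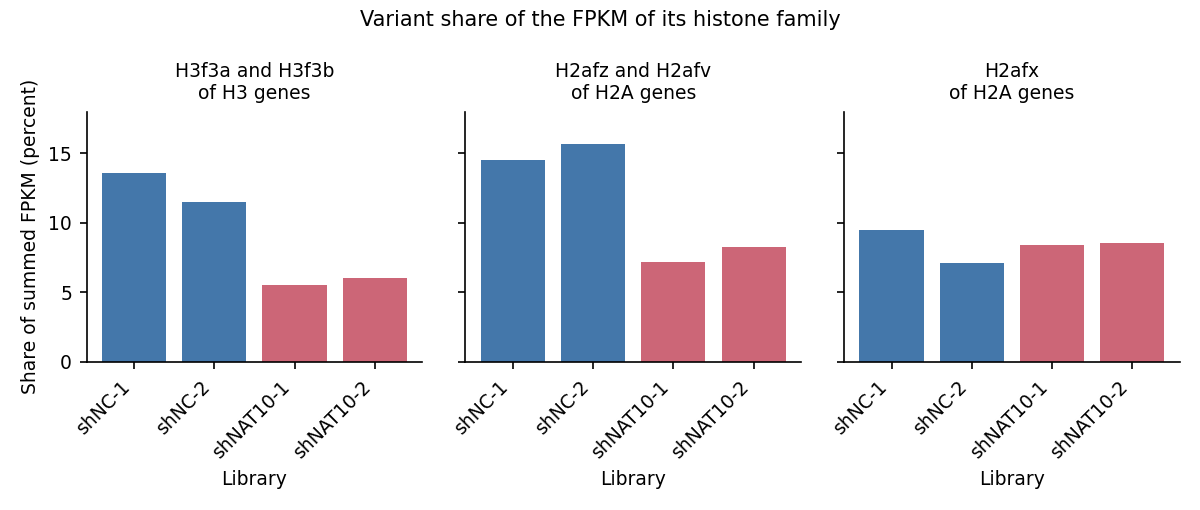
Share (percent) of H3.3 genes in the summed FPKM of H3 genes without *Cenpa*, in each library (shNC in blue, shNAT10 in red). The other panels give the shares of H2A.Z genes and of *H2afx* in the summed FPKM of H2A genes. The first 2 shares were 11.5% to 15.7% in shNC and 5.56% to 8.30% in shNAT10, and that of *H2afx* was 7.14% to 9.46% throughout.

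Genes that deposit, exchange or modify the variants were listed by variant. Of 38 such genes, 7 were higher and 1 lower at the limma threshold (8 of 38, 21.1%, beside 16.2% of all genes tested), and 0 of the 38 had an adjusted p under 0.05 by limma. By limma-voom 8 of the 38 did, with *Chaf1a* (log2 difference 0.47) among them and *Supt16* not. Their median log2 difference was 0.15. Without shNAT10-1 or shNAT10-2 the count fell from 8 to 1, without shNC-2 to 5. *Asf1b* was the single gene of this list called in all 14 alternatives.

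For H3.3, 3 of 7 genes passed (42.9%, beside 16.2% of all genes tested). *Hira*, the chaperone that loads H3.3 in active genes, was at 1.75 and 1.32 FPKM in shNC and at 2.47 and 2.54 in shNAT10 (log2 difference 0.69, standard error 0.20; limma adjusted p = 0.225). *Atrx*, the remodeller that works with *Daxx* at repeats and telomeres, was at 8.59 and 6.94 FPKM in shNC and at 10.7 and 11.2 in shNAT10 (0.50, limma adjusted p = 0.210). *Cabin1*, a subunit of the HIRA complex, was lower, at 2.77 and 2.22 FPKM in shNC and at 1.67 and 1.71 in shNAT10 (-0.53, limma adjusted p = 0.271). *Daxx* overlapped between the groups (-0.15, limma adjusted p = 0.752).

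For H2A.Z, 0 of 12 subunits of the exchange complexes and chaperones passed the limma threshold, beside 16.2% of all genes tested. By limma-voom 0 had an adjusted p under 0.05, beside 7.88%. No gene of this list had an unadjusted limma p of at most 0.05. The log2 differences ran from -0.38 for *Ep400*, the ATPase of the TIP60 complex, to 0.20 for *Yeats4*, and the chaperone that removes H2A.Z, *Anp32e*, was at -0.23 (limma adjusted p = 0.338). For γH2AX, 1 of 7 genes passed (14.3%, beside 16.2% of all genes tested), *Atr*, a kinase that phosphorylates H2A.X at stalled forks. *Atr* was at 4.41 and 4.17 FPKM in shNC and at 5.91 and 5.69 in shNAT10 (log2 difference 0.43, limma adjusted p = 0.206). *Atm*, the kinase at double-strand breaks, was at 0.29 and *Mdc1*, the reader of γH2AX, at 0.18, neither past the threshold.

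*Hjurp*, the chaperone that loads CENP-A, was at 3.06 and 2.37 FPKM in shNC and at 3.07 and 3.28 in shNAT10 (log2 difference 0.23, limma adjusted p = 0.578), and did not pass. Among 6 general H3-H4 and H2A-H2B chaperones, all had a log2 difference above 0 and 3 passed. *Chaf1b*, a subunit of the replication-coupled CAF-1 complex, was at 6.20 and 4.95 FPKM in shNC and at 8.19 and 8.86 in shNAT10 (0.61, limma adjusted p = 0.181). *Asf1b*, the H3-H4 chaperone of dividing cells, was at 19.0 and 19.3 FPKM in shNC and at 25.9 and 28.2 in shNAT10 (0.49, limma adjusted p = 0.121). *Supt16*, a subunit of the FACT complex, was at 0.33 (limma adjusted p = 0.270), and at 0.21, no longer past the threshold, without shNC-2.

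**Figure D4:**
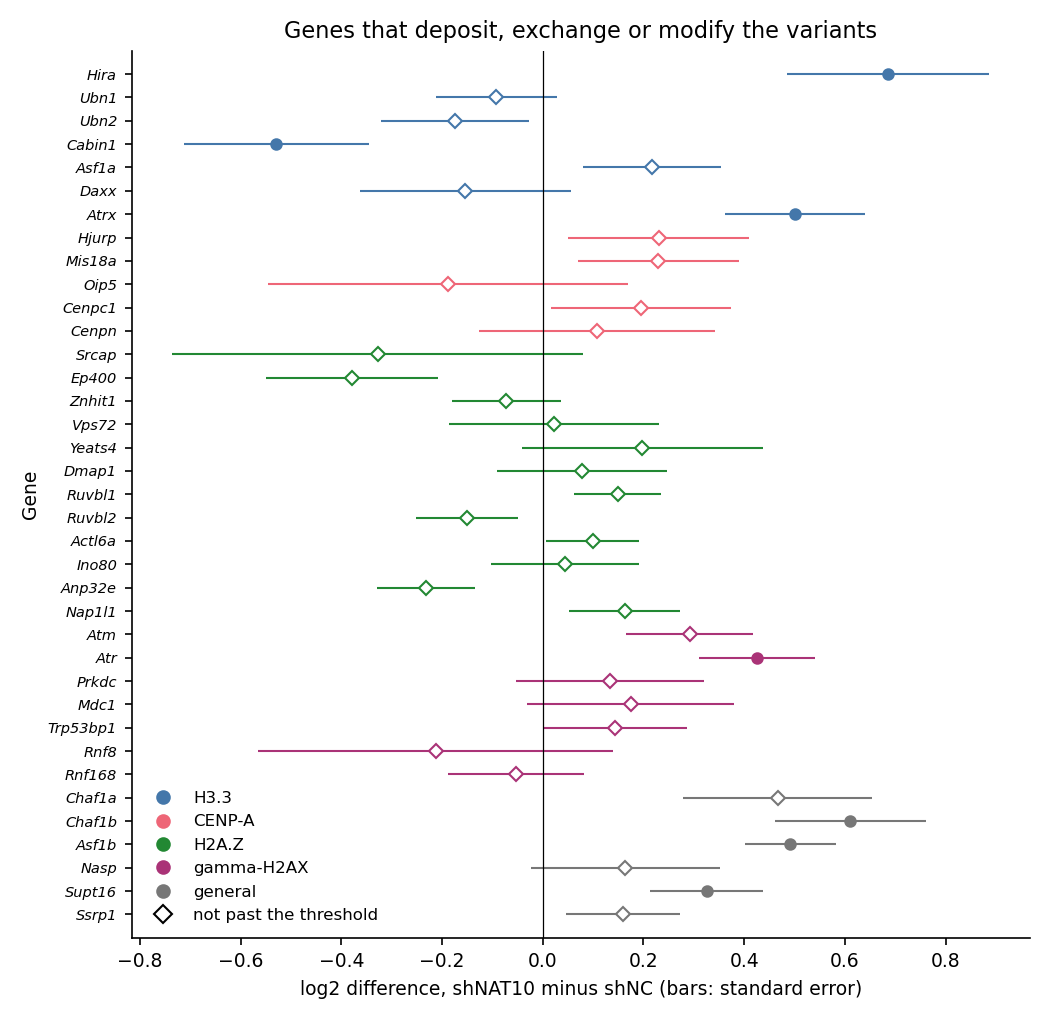
Log2 difference (shNAT10 minus shNC) with standard error for 37 of the genes that deposit, exchange or modify the variants, coloured by variant; filled circles passed the threshold, open diamonds did not. *Hira* at 0.69 and *Cabin1* at -0.53 are the ends of the range, and the H2A.Z genes (green) are all open, between -0.38 and 0.20.

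*Cenpa* is transcribed late in the cell cycle, so it was set beside 15 genes of G2 and mitosis. Of these, 7 were higher and 0 lower (46.7%, beside 8.41% of all genes tested as higher), with a median log2 difference of 0.30, while *Cenpa* was at 0.01. They were *Cenpf* (0.82), *Cenpe* (0.80) and *Kif11* (0.72), which act at kinetochores and spindles, *Aurka* (0.43), *Ccnb2* (0.36), *Top2a* (0.30) and *Bub1* (0.27). Of the 15 genes, 0 had an adjusted p under 0.05 by limma and 4 by limma-voom, namely *Cenpf*, *Cenpe*, *Kif11* and *Mki67*, of which *Mki67* (log2 difference 0.65) did not pass the threshold of the main test. Without shNAT10-1 or shNAT10-2 the count was 4 or 3. *Cenpe*, at 7.60 and 4.34 FPKM in the shNC libraries, had a log2 difference of 0.403 without shNC-2 and of 1.196 without shNC-1.

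The promoters of the members were read from RefSeq (GRCm38.p6; 250 bases before to 50 after the start), where 7 of the 8 genes matched and *H2afx* was not used. CCAAT, the box bound by NF-Y, was searched on both strands and occurred in 6 of the 7, the exception being *H2afy*, and in 37.4% of all 32851 promoters. TTTGAA, the core of the element found in many genes of late cell cycle, occurred in *H2afv* and *Cenpa* and in 17.9% of all promoters.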

How the data were processed

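Long RNA-seq of 4 libraries was used, 2 shNC and 2 shNAT10, grouped by the titles of the sample labels. The authors trimmed reads with cutadapt, aligned them with HISAT2 to mm10 and compared groups with DESeq2, according to the submitters' processing notes; the counting program, its strand setting and the annotation are not given in the sources used here. The authors deposited FPKM for 53465 genes, and a second table with their fold changes and p-values, which was not used. Columns of single libraries left out numbered 0. Of all genes, 26643 were at 0 in every library.

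Genes averaging at least 0.1 FPKM over the libraries (20116) were tested on the log2(FPKM + 0.1) scale by limma 3.58.1 (R 4.3.3; lmFit and eBayes, trend on), two-sided, with Benjamini-Hochberg adjustment over all of them. Fold changes on this scale understate those of low genes. Python 3.11.15 with scipy 1.17.1 gave exact permutation tests of ratios. Fragments were recovered from FPKM and GENCODE M21 exon lengths, and of the values below 50 fragments 96.0% to 96.6% lay no further than 0.02 from an integer; limma-voom on them called 3894 of 20077 genes at the same threshold, against 3267. p-values measure the spread between libraries, called biological replicates in the paper.

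The members and gene lists were chosen with earlier results of these data known. The genes named by rule were the 8 members, *Nat10*, other core variants, and every gene of the deposition, mitosis and linker H1 lists past the threshold; other named genes were chosen after their values had been seen, and 1 gene of the deposition list is not reported here. In simulated data of 19400 genes, 190 of 200 genes changed by 1.3 on the log2 scale were called, and 4.67% of the others. The spread between simulated libraries was set in advance and not estimated from these libraries. The changed genes were drawn from those with a mean of at least 1 FPKM. These rates belong to that setting and do not cover smaller differences such as that of *H3f3b*. Alternative settings were a pseudocount of 1 or 0.01, all genes above 0, a minimum mean of 1 FPKM, rescaling by median ratios, equal protein-coding totals, quantile normalization, limma without trend, limma-voom, the replicate number as a block, and each library left out.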

Additional observations from a re-analysis of the deposited data

How the results depend on the processing

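*H2afx* kept its call under all 14 alternatives (log2 difference 1.05 to 1.41), as did *Asf1b*, *Aurka*, *Kif11* and *Hist1h1a* to *Hist1h1e*. Without the trend, *H3f3b* stayed at 0.35 but lost its call (limma adjusted p = 0.411), and the counts were 1 of 8 members, 5 deposition and 3 mitosis genes. *H3f3a* turned to 0.0232 under quantile normalization. With each library left out in turn, *H2afz* ranged from 0.15 to 0.31 (called at 0.31), *H2afy* from -0.00377 to 0.22, *H3f3a* from -0.0937 to 0.0372, *H3f3b* from 0.28 to 0.41, *Cenpa* from -0.0831 to 0.0949 and *Nat10* from -1.35 to -0.83; *H2afy*, *H3f3a* and *Cenpa* thus changed sign. The counts then ranged from 1 to 3 members, 1 to 9 deposition genes, 3 to 7 mitosis genes, 36 to 47 replication-dependent core genes and 2007 to 3393 of all genes. The difference in the *H2afx* share of H2A ranged from -0.97 percentage points without shNC-2 to 1.34 without shNC-1. The cause was not tested in these cases; fits without a library rest on a single library in one group, which is assumed to vary like the other group.

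Same-numbered libraries did not deviate together (r = 0.01 over 20116 genes), so the numbers were not taken as pairs. With the replicate block 2 of 8 members and 3114 of all genes passed, and *H2afx* stayed at 1.23 (limma adjusted p = 0.076). No scaling moved the median of all genes by over 0.1. Of 23 other named genes, *Supt16* lost its call in 6 alternatives, *Cabin1*, *Bub1* and *Hist1h2ba* in 5 each, and none changed sign. Intervals cover the spread of 2 libraries only, and fragments are not told apart from PCR copies.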

Other observations

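Core variants of germ cells and silent chromatin outside the 8 members were at or near the floor of 3 fragments. *H2afb1*, *H2afb2* and *H2afb3* were at 0 in all 4 libraries. *H2afy2*, the gene of macroH2A2, was at 0.117 and 0.271 FPKM in shNC and at 0.183 and 0.210 in shNAT10, on 3 to 7 fragments. *Hist1h2aa* had 0 to 2 fragments per library. *Hist1h2ba*, the testis form of H2B, had 2 and 1 fragments in shNC and 7 and 5 in shNAT10, and *H2afy3*, annotated as a processed pseudogene, had 0 and 1 in shNC and 8 and 7 in shNAT10. Both passed the limma threshold (adjusted p = 0.214 and 0.202), at levels where single fragments set the value.

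For each member, the protein-coding genes with the most similar pattern over the 4 libraries were found among 3116 genes with a mean of at least 10 FPKM, as the Euclidean distance of centred log2 values. The nearest to *H2afx* were *Hist1h2bn* (distance 0.131) and *Hist1h2bh* (0.145), both replication-dependent H2B genes. The nearest to *H3f3b* were *Ndufa8* (0.0384) and *Tspan4* (0.0393), to *H2afz* *Glrx3* (0.0228) and *Dnaja2* (0.0261), and to *Cenpa* *Smarcd2* (0.0192) and *Fastk* (0.0248). *H2afv* lay nearest to *Mrpl54* (0.00493) and *Uchl3* (0.019), *H2afj* to *Ppia* (0.0143) and *Lgals9* (0.0249), *H2afy* to *Armc6* (0.0148) and *Tubb4b* (0.0337), and *H3f3a* to *Ppil3* (0.0142) and *Ppp1cb* (0.0206). With 4 libraries many genes lie close to any flat pattern, and these distances are a description.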
